A study of Mus musculus with 9 samples.

Results

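FGF and ERK feedback genes were followed in cells sorted from embryoid bodies with and without overexpression (OE) of NRF1. They comprised 10 genes, namely Fgf4, Fgfr1, Fgfr2, Spry2, Spry4, Spred1, Dusp4, Dusp6, Etv4 and Etv5. The genes were taken by an exact match of their symbols in the 9 deposited gene tables. Each symbol was found there as 1 of 56691 genes, and all 10 passed the filter on low counts that left 16903 genes to test. BVSC pluripotent stem cells (PSCs) are a mouse line in which mVenus reports Blimp1 (hence BV) and CFP reports Stella (hence SC). Blimp1 and Stella, now called Prdm1 and Dppa3, are genes of early germ cells. The line had been kept with 15% FBS, LIF, 1 μM PD0325901, an inhibitor of MEK, the kinase that activates ERK, and 3 μM CHIR99021, a GSK3 inhibitor, before embryoid bodies were formed in IMDM with 15% FBS. Cells of every group carried the DOX-inducible lentiviral vector p20, with Nrf1 cDNA (NRF1 OE) or empty (Ctrl), and received 1.5 μg/mL DOX from day 2 to day 5. Poly(A) RNA was sequenced from BV+ cells with NRF1 OE (n = 2), BV+ cells with Ctrl (n = 2), BV- cells with NRF1 OE (n = 3) and BV- cells with Ctrl (n = 2). The vector acts in every infected cell and not only in germ cells, and all groups came from the same PSC line. The study calls its replicates biological, but no source used here says that they came from separate cultures, so p-values measure the spread between these libraries.

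FGF4 is a ligand that pluripotent cells secrete themselves. It binds FGF receptors, which signal through RAS, RAF, MEK and ERK, and ERK activity drives pluripotent cells towards differentiation. ERK also switches on its own brakes, the Sprouty and SPRED proteins, which act upstream at the level of RAS and RAF, and the dual-specificity phosphatases, which remove phosphate from ERK. The ETS factors ETV4 and ETV5 are transcribed in response to FGF and carry the signal on to target genes. In the embryo, germ cells are specified from epiblast cells that respond to BMP and WNT signals, and FGF signals are active in the same tissue.

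The stretch around the start of transcription, from 250 bases before to 50 bases after it, was read for the genes found in a RefSeq promoter table of build GRCm38.p6. The table held 6 of the 10 genes, namely Fgf4, Fgfr2, Spry2, Spred1, Dusp6 and Etv5, with 2 starts for Etv5. Fgfr1, Spry4, Dusp4 and Etv4 were not in it. The promoters of Spred1, Dusp6 and Etv5 (first start) are shown as examples of genes that differed between BV+ and BV- cells under NRF1 OE. Spred1 and Dusp6 differed in 1 direction and Etv5 in the other. Spry2 and Fgfr2 are in the table and differed as well, but their promoters are not shown. CpG dinucleotides are in capitals. The windows shown lie at chr2:117120821-117121120 on the plus strand, chr10:99262981-99263280 on the plus strand and chr16:22439521-22439820 on the minus strand.
Spred1: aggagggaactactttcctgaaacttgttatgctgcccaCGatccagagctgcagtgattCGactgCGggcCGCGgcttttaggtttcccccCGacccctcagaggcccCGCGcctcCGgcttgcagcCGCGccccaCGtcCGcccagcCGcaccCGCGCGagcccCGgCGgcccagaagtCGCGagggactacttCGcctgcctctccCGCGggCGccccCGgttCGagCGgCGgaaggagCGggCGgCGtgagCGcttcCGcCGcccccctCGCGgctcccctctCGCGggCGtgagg
Dusp6: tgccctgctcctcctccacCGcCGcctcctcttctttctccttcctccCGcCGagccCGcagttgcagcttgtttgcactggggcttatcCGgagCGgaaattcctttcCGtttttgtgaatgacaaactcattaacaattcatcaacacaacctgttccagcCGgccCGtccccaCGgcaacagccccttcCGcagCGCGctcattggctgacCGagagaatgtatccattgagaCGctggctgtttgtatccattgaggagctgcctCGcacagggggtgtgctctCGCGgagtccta
Etv5: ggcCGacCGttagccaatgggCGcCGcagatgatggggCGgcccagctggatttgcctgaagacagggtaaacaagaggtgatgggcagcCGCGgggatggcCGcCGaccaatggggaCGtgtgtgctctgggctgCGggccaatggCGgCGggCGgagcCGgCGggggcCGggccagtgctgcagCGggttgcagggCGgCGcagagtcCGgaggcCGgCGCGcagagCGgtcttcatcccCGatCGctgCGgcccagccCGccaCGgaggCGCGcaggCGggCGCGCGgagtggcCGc
The Spred1 window held 40 CpG and had a GC content of 72.3%, the Etv5 window held 37 CpG with 74.0% GC, and the Dusp6 window held 19 CpG with 57.3% GC. The median over all 32851 windows of the table was 7 CpG and 52.7% GC, so all 3 windows were richer in CpG than most. Of the windows not shown, that of Spry2 held 28 CpG with 62.7% GC, and that of Fgfr2 only 4 CpG with 43.7% GC. A part of the NRF1 motif, GCGCATGC, and an ETS motif, CCGGAAGT, were searched on both strands. They were matched in 2.71% and 3.89% of all windows and in 0 of the 7 windows of these genes. This says only that these letters are not there, and shorter parts of the motifs, such as a half-site, were not searched.

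Total counts per library lay between 13702162 and 19625460 with a median of 17443624, and at that depth each of the 10 genes had between 149 and 11550 counts in a library. Levels are given below as CPM, the counts of a gene per 1000000 counts of its library, scaled between libraries by edgeR's TMM factors, and differences as log2 fold changes from edgeR's quasi-likelihood F test. A gene was called changed at an adjusted p (Benjamini-Hochberg, over 16903 genes) under 0.05. The Nrf1 gene itself had 95.7 to 99.4 CPM in BV+ cells with NRF1 OE and 90.4 to 91.1 CPM in BV+ cells with Ctrl. In BV- cells it had 119 to 126 CPM with NRF1 OE and 99.1 to 105 CPM with Ctrl. The groups did not overlap in either population, but the log2 fold changes of Nrf1 were small, 0.10 (edgeR adjusted p = 0.489) and 0.26 (edgeR adjusted p = 0.0718).

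Germ cell markers were not higher as a list in BV+ than in BV- libraries. With Ctrl the 10 markers summed to 483 to 492 CPM in BV+ and 491 to 518 CPM in BV- libraries, which overlapped. Of these 10, 0 were called by edgeR (1.12% of all genes), with 3 at an unadjusted p under 0.05 (7.77% of all genes). With NRF1 OE the 10 markers summed to 446 to 487 CPM in BV+ and 514 to 615 CPM in BV- libraries. Of these, 1 was called higher in BV+ cells, Itgb3, and 3 lower, Dppa3, Nanos3 and Tfap2c (13.8% of all genes called). The most abundant markers, such as Kit, weigh most in these sums. The mean of Itgb3, an integrin used to sort germ cells, went the other way, with 24.4 CPM in BV+ against 15.0 CPM in BV- cells with Ctrl (edgeR adjusted p = 0.0577) and 49.4 CPM against 20.9 CPM under NRF1 OE (edgeR adjusted p = 9.12e-05). The mean of Prdm1, the gene behind the BV reporter, was 60.1 CPM in BV+ and 58.0 CPM in BV- cells with Ctrl, and 54.9 and 54.8 CPM with NRF1 OE. The populations are therefore named here only by the reporter fraction, BV+ and BV-. Genes of fibroblasts and mesenchyme did differ, with 6 markers summing to 449 to 693 CPM in BV+ cells with NRF1 OE, 135 to 141 CPM in BV+ cells with Ctrl and 22.9 to 29.3 CPM in BV- libraries. Col1a1, Col1a2 and Col3a1 made up that difference, and Pdgfra, Thy1 and Twist1 were not called higher in BV+ than in BV- cells. Library 1 of BV+ cells with NRF1 OE had the highest sum. In bulk RNA, fewer cells of a type and less RNA per cell cannot be told apart. Libraries also differed in how a gene's count moved with the GC content of its transcript. Over 14253 genes, Spearman's rho of a gene's deviation from its mean over the libraries with GC content was between -0.561 and -0.467 in the 4 Ctrl libraries, 0.308 and 0.00674 in the BV+ libraries of NRF1 OE, and 0.0445, 0.666 and 0.531 in its BV- libraries. The trend therefore moved with NRF1 OE, and the 10 genes, the pathway genes and the markers were also fitted with offsets for GC content and transcript length. Such offsets also remove any effect of NRF1 OE that follows GC content, which cannot be told apart here from a technical trend. With offsets 7 of 10 germ cell markers were called between populations with NRF1 OE (27.9% of all genes). Itgb3 was higher, and Dnd1, Dppa3, Kit, Nanos3, Prdm14 and Tfap2c were lower. With Ctrl 0 of 10 were called (1.70% of all genes).

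On a scale that accounts for gene length (FPKM, fragments per kilobase of gene at a fixed depth, as deposited), Etv5 was the most abundant of the 10 genes. Its level was 111 to 161 FPKM with a median of 139 FPKM over the 9 libraries. The other ETS factor, Etv4, had a median of only 16.3 FPKM. Both phosphatases were well expressed, with medians of 59.3 FPKM for Dusp4 and 39.4 FPKM for Dusp6. Fgf4 had a median of 49.8 FPKM, Spry2 of 30.6 FPKM, Fgfr1 of 21.4 FPKM, Spred1 of 12.0 FPKM and Spry4 of 10.3 FPKM. Fgfr2 was far below its sister receptor, with a median of 1.22 FPKM and a range of 0.92 to 1.71 FPKM. Etv5, at the top, and Fgfr2, at the bottom, overlapped with none of their neighbours in this order in any library, and neither did Spry2 (lowest 26.7 FPKM) with Fgfr1 (highest 25.9 FPKM). The other neighbours overlapped in their ranges. Within a gene the libraries differed little, from 1.33-fold between the highest and lowest CPM for Fgfr1 to 2.83-fold for Spred1.

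**Figure D1:**
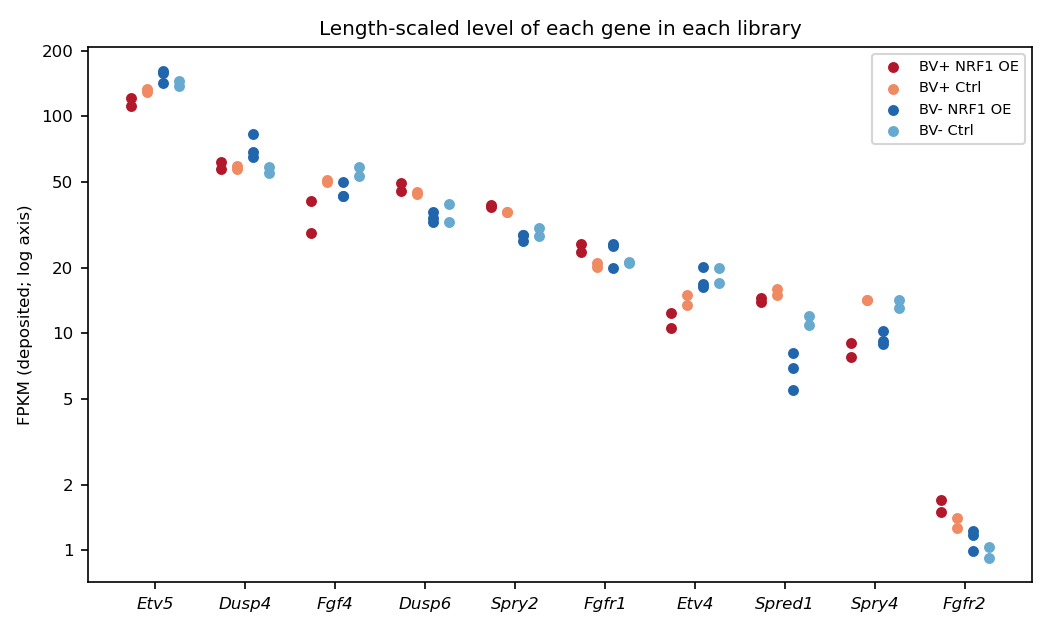
Deposited FPKM (log axis) of the 10 genes in each of the 9 libraries, ordered by their median, with 1 point per library coloured by group. Etv5 stands above all others at 111 to 161 FPKM and Fgfr2 below all others at 0.92 to 1.71 FPKM.

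The first question was how NRF1 OE altered these genes in BV+ and in BV- cells. Spry4, a Sprouty inhibitor of the pathway, fell in both populations. Its level with NRF1 OE was 0.606 times that with Ctrl in BV+ cells and 0.714 times that with Ctrl in BV- cells. In BV- cells Spred1 also fell and Dusp4 rose, and the remaining genes were not called. In BV+ cells 1 of 10 genes was called (8.02% of all genes tested were called, and 1.78% were called lower). In BV- cells 3 of 10 were called (17.2% of all genes, 10.2% higher and 6.98% lower). With offsets 4 of 10 were called in BV+ cells, all lower (12.5% of all genes), and 1 of 10 in BV- cells (6.25% of all genes). The median log2 fold change of the 10 genes was -0.0092 in BV+ and -0.026 in BV- cells, beside medians of 0.036 and 0.0092 over all genes.

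**Figure D2:**
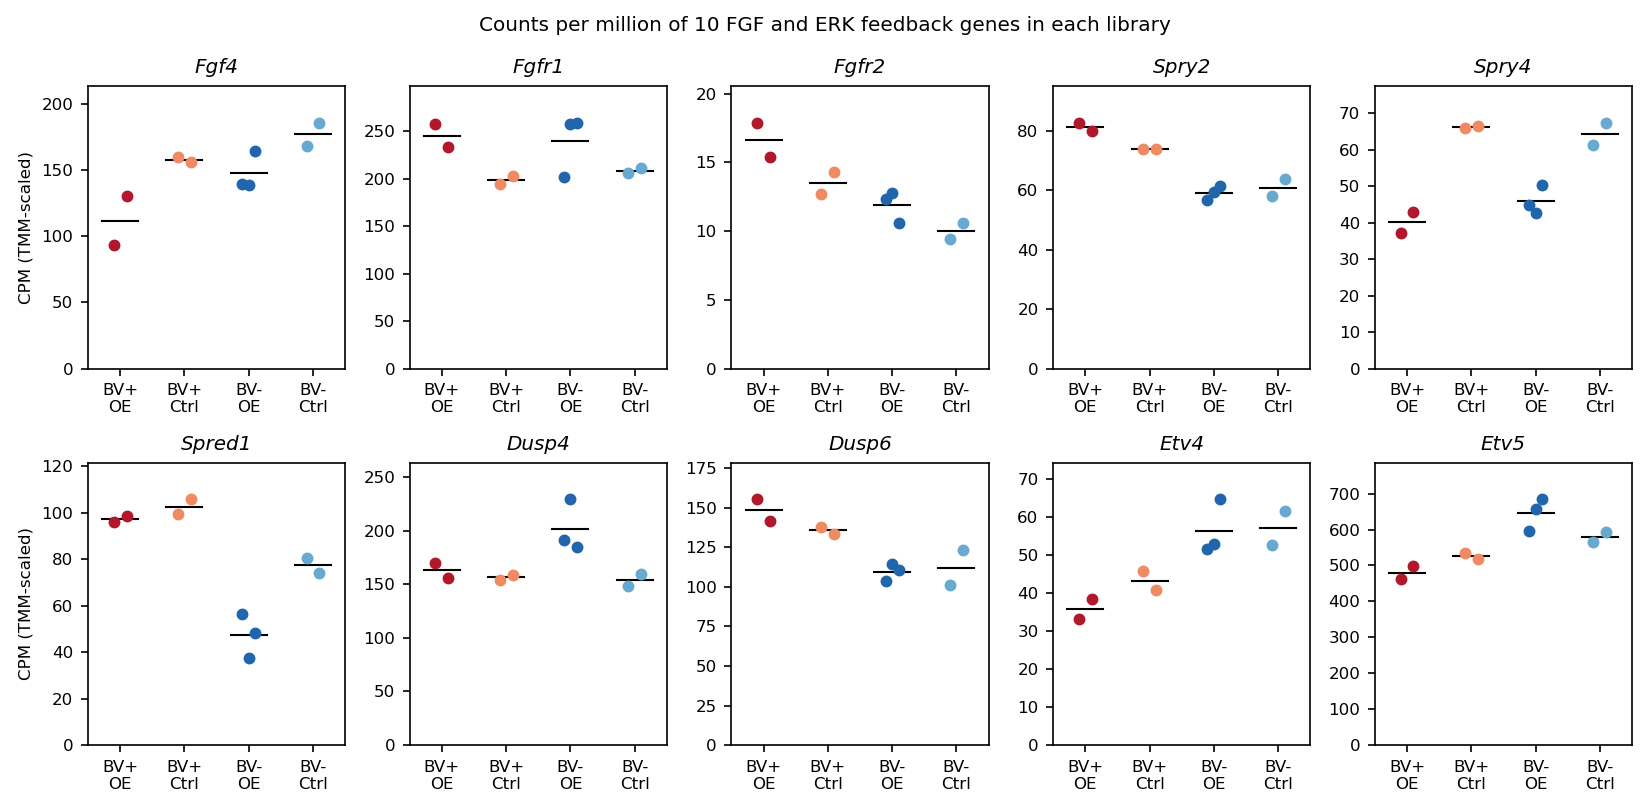
TMM-scaled CPM of each gene, with 1 point per library, a line at each group mean and every vertical axis starting at 0. OE is NRF1 OE. Spry4 libraries with NRF1 OE lie at 37.3 to 50.4 CPM, below the Ctrl libraries at 61.4 to 67.4 CPM, and Spred1 is lowest in BV- cells with NRF1 OE at 37.4 to 56.2 CPM.

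Among the Sprouty and SPRED genes, Spry4 had 37.3 and 42.9 CPM in BV+ cells with NRF1 OE against 66.1 and 66.4 CPM with Ctrl. The BV- libraries had 44.9, 42.7 and 50.4 CPM with NRF1 OE and 61.4 and 67.4 CPM with Ctrl. Every NRF1 OE library was below every Ctrl library, whichever population it came from. The log2 fold change was -0.72 (SE 0.130, edgeR adjusted p = 0.0159) in BV+ cells and -0.49 (SE 0.117, edgeR adjusted p = 0.0327) in BV- cells. Offsets for GC content and length left both in place, at -0.80 (edgeR adjusted p = 0.00239) and -0.52 (edgeR adjusted p = 0.0272). The direction held in all fits tried, but the adjusted p depended on single libraries. In BV+ cells it was 0.212 by edgeR without NRF1 OE library 1, 0.134 without Ctrl library 1 and 0.189 without Ctrl library 2 of the BV+ cells. For BV- cells it was 0.0595 by edgeR without BV- NRF1 OE library 3, 0.0668 and 0.0671 without BV+ Ctrl library 1 and 2, and 0.311 and 0.131 without BV- Ctrl library 1 and 2.

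Spred1 encodes a membrane protein that blocks RAF activation by RAS. It had 56.2, 37.4 and 48.3 CPM in BV- cells with NRF1 OE against 80.6 and 74.2 CPM in BV- cells with Ctrl. In BV+ cells it had 95.8 and 98.6 CPM with NRF1 OE and 99.2 and 106 CPM with Ctrl. The groups did not overlap in either population, and the gap was wide only in BV- cells. The log2 fold change was -0.71 (SE 0.147, edgeR adjusted p = 0.0317) in BV- cells and -0.08 (edgeR adjusted p = 0.761) in BV+ cells. Spred1 had the lowest GC content of the 10 transcripts, at 41.2%, and lay at the 9.71 percentile of the genes tested. With offsets for GC content and length the call in BV- cells was lost, at -0.18 (edgeR adjusted p = 0.145), and the value in BV+ cells turned to 0.23 (edgeR adjusted p = 0.0689). Without any of the 5 libraries that ended the call of Spry4 in BV- cells, that of Spred1 ended as well, with edgeR adjusted p between 0.0595 and 0.311. The third gene of this kind, Spry2, was not called. Its level was 82.6 and 79.9 CPM in BV+ cells with NRF1 OE and 73.9 CPM in both BV+ Ctrl libraries. Across the BV- libraries it was 56.7, 59.5 and 61.3 CPM with NRF1 OE and 57.9 and 63.8 CPM with Ctrl, with overlapping groups. The 95% interval of its log2 fold change was -0.11 to 0.38 in BV+ and -0.26 to 0.18 in BV- cells.

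The dual-specificity phosphatases DUSP4, which is nuclear, and DUSP6, which is cytoplasmic, both inactivate ERK. Dusp4 had 191, 229 and 184 CPM in BV- cells with NRF1 OE against 149 and 160 CPM with Ctrl. In BV+ cells it had 170 and 156 CPM with NRF1 OE and 154 and 159 CPM with Ctrl. The rise was thus seen in BV- libraries without overlap, whereas the BV+ groups overlapped. The log2 fold change was 0.39 (SE 0.115, edgeR adjusted p = 0.0445) in BV- and 0.06 (edgeR adjusted p = 0.766) in BV+ cells. Its transcript had a GC content of 56.0%. The offsets cannot tell a technical trend from an NRF1 OE effect that follows GC content. With them the value in BV- cells was 0.040 (edgeR adjusted p = 0.784), so the call did not survive. It also ended, with edgeR adjusted p between 0.0500 and 0.322, when any library other than BV- NRF1 OE library 1 was left out. Dusp6 had 155 and 142 CPM with NRF1 OE and 138 and 134 CPM with Ctrl in BV+ cells. Its BV- libraries had 104, 115 and 110 CPM with NRF1 OE and 101 and 123 CPM with Ctrl. Its log2 fold changes, 0.13 in BV+ cells (95% interval -0.13 to 0.40) and -0.034 in BV- cells (95% interval -0.28 to 0.21), were not called.

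The ligand Fgf4 had 93.3 and 130 CPM in BV+ cells with NRF1 OE against 159 and 156 CPM in BV+ cells with Ctrl. The BV- levels of Fgf4 were 139, 139 and 164 CPM with NRF1 OE and 168 and 186 CPM with Ctrl. All NRF1 OE libraries were thus lower than the Ctrl libraries of their population, but the difference did not pass the test. The log2 fold change was -0.50 (95% interval -0.84 to -0.16, edgeR adjusted p = 0.0663) in BV+ and -0.26 (95% interval -0.57 to 0.044, edgeR adjusted p = 0.184) in BV- cells. In BV+ cells the size rested on NRF1 OE library 1, since it was -0.27 without that library and -0.75 without NRF1 OE library 2 (edgeR adjusted p = 0.459 and 0.0190). With offsets Fgf4 was called in BV+ cells, at -0.58 (edgeR adjusted p = 0.0176).

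Fgfr1, the main receptor for FGF4 in pluripotent cells, had 257 and 233 CPM in BV+ cells with NRF1 OE against 194 and 202 CPM with Ctrl. For BV- cells the levels were 201, 258 and 259 CPM with NRF1 OE and 206 and 211 CPM with Ctrl. The BV+ groups did not overlap, whereas 1 BV- library with NRF1 OE lay below both BV- Ctrl libraries. The log2 fold changes, 0.31 in BV+ (95% interval 0.018 to 0.59, edgeR adjusted p = 0.135) and 0.20 in BV- cells (95% interval -0.066 to 0.46, edgeR adjusted p = 0.241), were not called. With offsets they were 0.049 and -0.020, so the higher level was not seen once GC content and length were modelled. Fgfr2, a receptor best known from epithelia and trophoblast, had 17.9 and 15.4 CPM in BV+ cells with NRF1 OE against 12.7 and 14.3 CPM with Ctrl. In BV- cells it had 12.3, 12.7 and 10.6 CPM with NRF1 OE and 9.39 and 10.6 CPM with Ctrl. NRF1 OE libraries were above the Ctrl libraries in both populations, and the log2 fold changes of 0.30 and 0.25 did not pass the test (edgeR adjusted p = 0.208 and 0.244). An exon of Fgfr2 overlaps with the gene Ctbp2 on the same strand and an exon of Fgfr1 with Gm16159 on the opposite strand, in the GRCm38 annotation, so their counts are less certain than the others.

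The ETS factors Etv4 and Etv5 are often read as signs of active FGF signalling. Etv5 had 462 and 498 CPM in BV+ cells with NRF1 OE against 534 and 518 CPM with Ctrl. In BV- cells the order was the other way round, with 596, 657 and 684 CPM with NRF1 OE and 564 and 594 CPM with Ctrl. Neither difference was called, with log2 fold changes of -0.13 in BV+ (95% interval -0.36 to 0.095, edgeR adjusted p = 0.380) and 0.16 in BV- cells (95% interval -0.051 to 0.36, edgeR adjusted p = 0.237). Etv4 had 33.1 and 38.4 CPM in BV+ cells with NRF1 OE against 45.7 and 40.9 CPM with Ctrl. In BV- cells it had 51.7, 53.0 and 64.7 CPM with NRF1 OE and 52.7 and 61.7 CPM with Ctrl, with overlapping groups. Its log2 fold changes were -0.28 (edgeR adjusted p = 0.223) and -0.018 (edgeR adjusted p = 0.934). Etv4 had the highest GC content of the 10 transcripts, at 58.7%. With offsets both ETS genes were called lower in BV+ cells, Etv4 at -0.66 (edgeR adjusted p = 0.0239) and Etv5 at -0.25 (edgeR adjusted p = 0.0429).

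**Figure D3:**
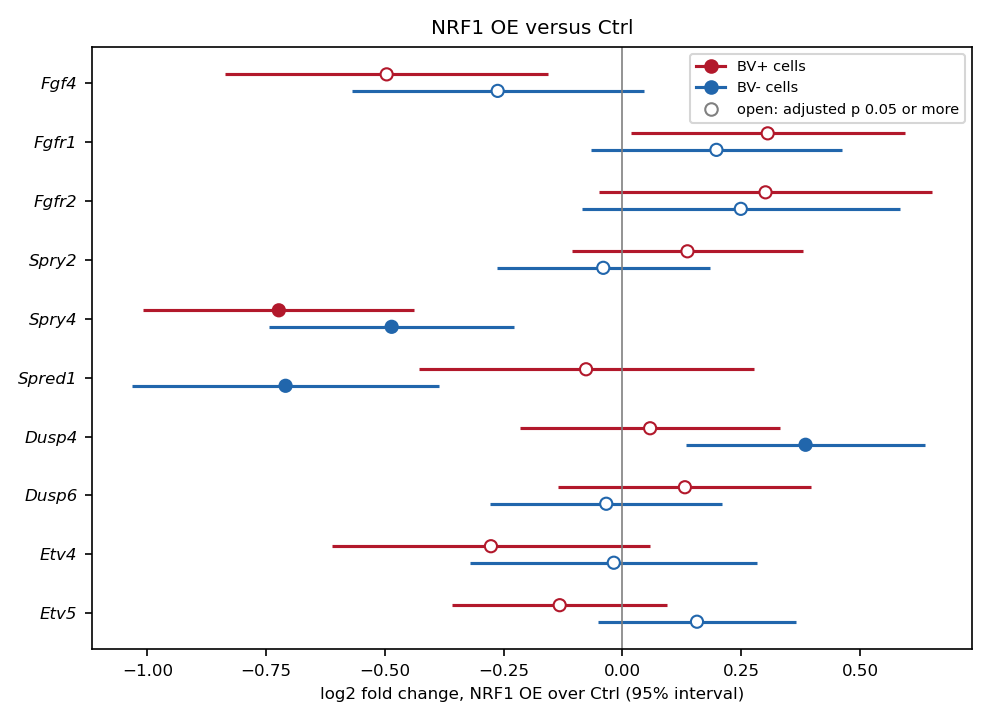
Log2 fold change of NRF1 OE over Ctrl with its 95% interval for each gene in BV+ (red) and BV- cells (blue), filled where the adjusted p is under 0.05. Spry4 is filled in both populations, and Spred1 (-0.71) and Dusp4 (0.39) are filled in BV- cells.

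The study itself set its limit at an unadjusted p of 0.05 and a log2 fold change of 0.58 in either direction. By that rule, applied to edgeR's p, 1 of the 10 genes, Spry4, passed in BV+ cells (17.0% of all genes) and 1, Spred1, passed in BV- cells (16.0% of all genes). Both the number and the direction of calls over all genes moved with the scaling. The share of calls that were higher with NRF1 OE was 77.8% in BV+ and 59.5% in BV- cells with TMM, 60.2% and 50.3% with upper-quartile factors, and 55.0% and 70.0% with offsets.

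**Figure D4:**
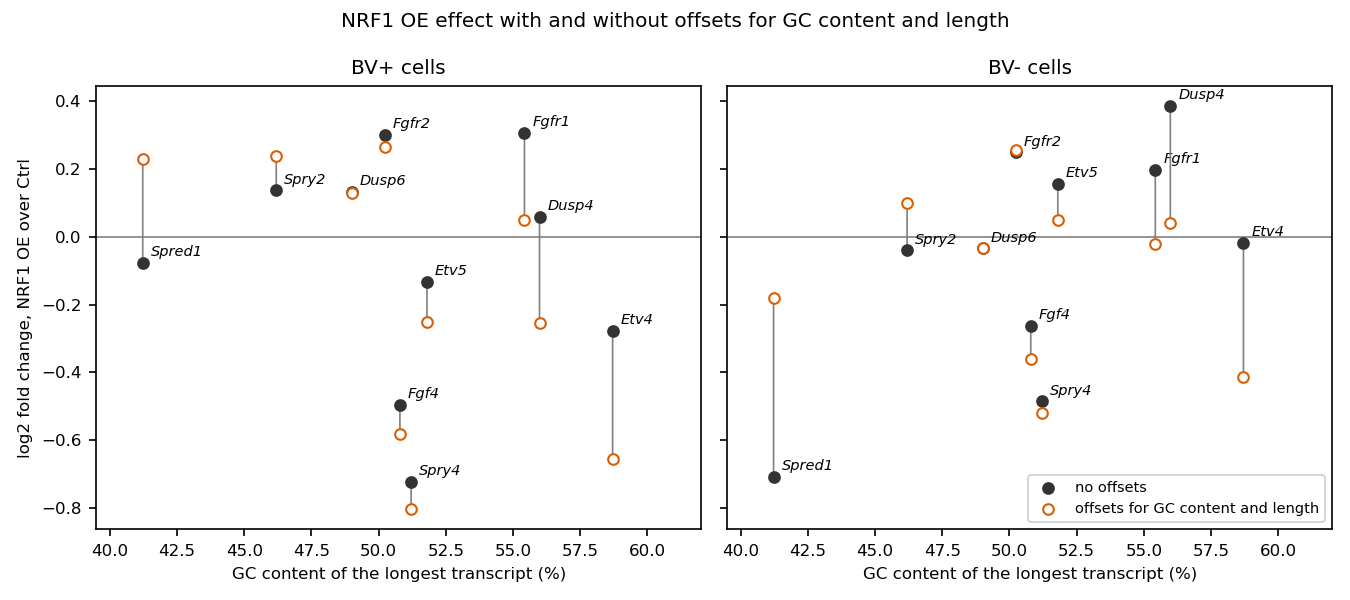
Log2 fold change of NRF1 OE over Ctrl against the GC content of each gene's longest transcript, without offsets (filled) and with offsets for GC content and length (open), in BV+ (left) and BV- cells (right). Genes near 50% GC, such as Spry4 and Dusp6, hardly move, whereas Spred1 at 41.2% GC moves up and Dusp4 at 56.0% and Etv4 at 58.7% move down in both populations.

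Whether the NRF1 OE effect differed between BV+ and BV- cells was tested by the difference of both log2 fold changes. With edgeR 0 of the 10 genes were called, and DESeq2 also called 0. At an unadjusted p under 0.05 the test passed 1 gene, Spred1, while 5.51% of all genes passed. For Spred1 the effect in BV+ cells was higher by 0.63 on the log2 scale (95% interval 0.15 to 1.11, edgeR adjusted p = 0.718), and by 0.41 with offsets (edgeR adjusted p = 0.256). For Spry4 the difference was -0.24 (95% interval -0.62 to 0.15), for Dusp4 it was -0.33 (95% interval -0.70 to 0.044), and for Etv5, whose log2 fold changes had opposite signs, it was -0.29 (95% interval -0.60 to 0.018).

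The second question was how BV+ differed from BV- cells. With NRF1 OE, 6 of the 10 genes were called, 4 higher and 2 lower in BV+ cells (13.8% of all genes, 9.90% higher and 3.85% lower). The genes that were higher were the inhibitors Spred1, Spry2 and Dusp6 and the receptor Fgfr2. Those that were lower were the ETS factors Etv4 and Etv5. The inhibitors did not all go 1 way, since Spry4 and Dusp4 had log2 fold changes of -0.20 and -0.31 that were not called. The median of the 10 genes was -0.081, beside -0.0049 over all genes. With offsets 8 of the 10 genes were called, 3 higher and 5 lower (27.9% of all genes). Spred1, Spry2, Dusp6, Etv4 and Etv5 were called in both fits. With offsets Fgfr2 was no longer called, at 0.35 (edgeR adjusted p = 0.0766), and Fgf4, Spry4 and Dusp4 were called lower, at -0.41, -0.35 and -0.29 (edgeR adjusted p = 0.0241, 0.0148 and 0.0131). The median of the 10 genes was then -0.21, beside -0.10 over all genes.

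Spred1 differed most. Its BV+ libraries with NRF1 OE, at 95.8 and 98.6 CPM, were above all 3 BV- libraries, at 37.4 to 56.2 CPM, and its level was 2.05 times as high (log2 fold change 1.04, SE 0.147, edgeR adjusted p = 0.000676). The call held in 18 of 18 alternative fits, with a value of 0.66 when offsets were used. Spry2 was 1.37 times as high in BV+ cells (log2 fold change 0.46, SE 0.101, edgeR adjusted p = 0.0115), and its BV+ libraries, at 79.9 and 82.6 CPM, lay above the BV- maximum of 61.3 CPM. Dusp6 was 1.36 times as high (log2 fold change 0.44, SE 0.110, edgeR adjusted p = 0.0224), again with no overlap of libraries. These 3 inhibitors thus separated the populations in every NRF1 OE library. Fgfr2 was 1.40 times as high (log2 fold change 0.49, SE 0.146, edgeR adjusted p = 0.0481), a call that held in 3 of 18 alternative fits, whereas that of Spry2 held in 15 and that of Dusp6 in 12.

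Of the genes that were lower, Etv4 had 33.1 and 38.4 CPM in BV+ and at least 51.7 CPM in BV- cells with NRF1 OE, or 0.633 times the BV- level (log2 fold change -0.66, SE 0.141, edgeR adjusted p = 0.00968). Etv5 had 462 and 498 CPM against at least 596 CPM in BV- cells, or 0.744 times the BV- level (log2 fold change -0.43, SE 0.0954, edgeR adjusted p = 0.0122). Neither gene's groups overlapped, and the calls held in 16 and 14 of 18 alternative fits. Fgf4 was lower as well, at -0.40 (95% interval -0.71 to -0.088), without passing the test in the fit without offsets (edgeR adjusted p = 0.0887), and Fgfr1 showed 0.036 (95% interval -0.23 to 0.30). Without library 1 of BV+ cells with NRF1 OE, which had the highest fibroblast marker sum, 1 gene was called, Spred1, and without library 3 of BV- cells with NRF1 OE 3 were called, Spry2, Spred1 and Etv4. By the study's rule 2 genes passed, Spred1 and Etv4 (14.7% of all genes).

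With Ctrl the same genes had smaller values in the same directions, and edgeR called 0 of 10 (1.12% of all genes), as did DESeq2 and the fit with offsets (1.70% of all genes). At an unadjusted p under 0.05 the test passed 5 of 10 genes (7.77% of all genes). These were Spred1 at 0.40, Fgfr2 at 0.43, Spry2 at 0.28, Dusp6 at 0.27 and Etv4 at -0.40 on the log2 scale, with edgeR adjusted p between 0.460 and 0.621. In Ctrl libraries Spred1 had 99.2 and 106 CPM in BV+ and 80.6 and 74.2 CPM in BV- cells, Spry2 had 73.9 CPM in both BV+ libraries and 57.9 and 63.8 CPM in BV- libraries, and Etv4 had 45.7 and 40.9 CPM in BV+ and 52.7 and 61.7 CPM in BV- libraries. The groups did not overlap for these 3 genes, and neither did they for Fgfr2, Dusp6, Etv5, Fgf4 and Fgfr1. How many of all genes separated in this way was not counted, so with 2 libraries per group this separation is not read as a difference. Etv5 had a log2 fold change of -0.14 (95% interval -0.36 to 0.089), and Spry4, Dusp4, Fgf4 and Fgfr1 were between -0.17 and 0.040. A fit of the Ctrl libraries alone called Spry2, Spred1 and Etv4. That fit called 890 genes over all, beside 190 in the fit of all 9 libraries. By the study's rule 0 of 10 genes passed (5.74% of all genes).

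**Figure D5:**
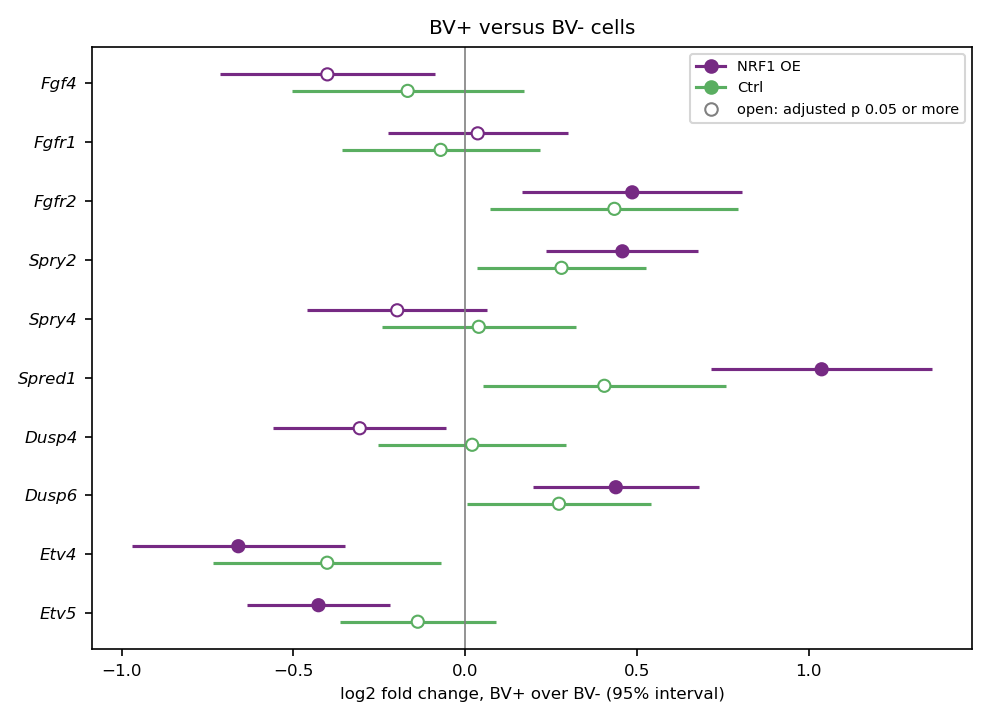
Log2 fold change of BV+ over BV- cells with its 95% interval for each gene with NRF1 OE (purple) and with Ctrl (green), filled where the adjusted p is under 0.05. With NRF1 OE, Spred1, Fgfr2, Spry2 and Dusp6 are filled on the right and Etv4 and Etv5 on the left, and no Ctrl point is filled.

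Several marker lists moved with the comparisons of populations. Of the 6 fibroblast and mesenchyme markers 3 were called higher in BV+ cells with NRF1 OE (13.8% of all genes called) and 3 with Ctrl (1.12%). Col1a2 had log2 fold changes of 5.08 and 3.46. The 4 neuroectoderm markers summed to 112 to 163 CPM in BV+ cells with NRF1 OE, 66.9 to 74.1 CPM in BV+ cells with Ctrl and 30.1 to 48.9 CPM in BV- libraries. Of these markers Nes, which encodes the intermediate filament nestin, was called higher in BV+ cells with NRF1 OE and with Ctrl. Kdr and Cdh5, genes of mesoderm and of endothelium, were also called higher in BV+ cells in both, whereas the other endothelial marker, Pecam1, was not. The 7 naive pluripotency markers summed to 1108 to 1308 CPM in BV+ cells with NRF1 OE and 1413 to 1464 CPM in the other groups. With offsets 1 of them was called higher and 4 lower in BV+ cells with NRF1 OE (27.9% of all genes), and 0 with Ctrl (1.70%). Pecam1 was then called lower in BV+ cells with NRF1 OE, at -0.46 (edgeR adjusted p = 0.0100). The part of these markers in the differences of Spred1, Spry2, Dusp6, Fgfr2, Etv4 and Etv5 was not tested.

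Markers also moved with NRF1 OE. In BV+ cells the fibroblast sum rose with the 3 collagen genes, of which Col1a2 made up most, and in BV- cells, where Spry4 also fell, it was 22.9 to 29.0 CPM with NRF1 OE and 23.9 to 29.3 CPM with Ctrl. In BV- cells Col3a1 was called higher within that sum. Pdgfra, a receptor of mesenchymal cells, was called lower in both populations, from a mean of 7.47 to 3.32 CPM in BV+ and from 7.86 to 3.20 CPM in BV- cells. In BV- cells 5 of 10 germ cell markers rose and, of 7 naive pluripotency markers, 2 rose and 3 fell (17.2% of all genes called), and in BV+ cells 2 of the former rose and 2 of the latter fell (8.02%). With offsets 2 germ cell markers were called higher in each population, and 4 naive pluripotency markers were called lower in BV+ and 3 in BV- cells. That fit called 12.5% of all genes in BV+ and 6.25% in BV- cells. The part of these markers in the values of Spry4, Spred1 and Dusp4 was not tested.

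Beyond these 10 genes, 73 further genes of the pathway were followed, from ligands to ERK-responsive genes, and 69 of them were tested. With NRF1 OE 7 rose and 1 fell in BV+ cells (11.6%, beside 8.02% of all genes), and 8 rose and 9 fell in BV- cells (24.6%, beside 17.2%). With offsets, chosen for this list after seeing the data, 5 rose and 2 fell in BV+ cells (10.1%, beside 12.5% of all genes), and 1 rose and 3 fell in BV- cells (5.80%, beside 6.25%). The largest rises in BV+ cells were those of Ets1, an ETS factor, at a log2 fold change of 1.22 (edgeR adjusted p = 0.0122), of the mesenchymal ligand Fgf10 at 1.11 (edgeR adjusted p = 0.0475) and of Elk3, an ERK-regulated ETS factor, at 0.89 (edgeR adjusted p = 0.0128). The ligand Fgf1 fell in both populations, at -0.92 in BV+ (edgeR adjusted p = 0.0188) and -0.95 in BV- cells (edgeR adjusted p = 0.0317). In BV- cells the ERK phosphatase Dusp9, the ETS repressor Erf and Mapk3, which encodes ERK1, had the largest rises, at 0.65, 0.58 and 0.55 (edgeR adjusted p = 0.0317, 0.0418 and 0.0342). Besides Fgf1, the co-receptor Klb and the RAS GTPase-activating protein Rasa1 had the largest falls there, at -0.995 and -0.782 (edgeR adjusted p = 0.0377 and 0.0395). The calls of Ets1, Fgf10, Elk3, Fgf1 and Klb held with offsets. Those of Dusp9, Erf, Mapk3 and Rasa1 did not, at 0.26, 0.21, 0.13 and -0.35 (edgeR adjusted p = 0.0721, 0.174, 0.278 and 0.0826).

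Of the 22 signal transducers, 4 rose and 4 fell in BV- cells with NRF1 OE (36.4%, beside 17.2% of all genes), and 1 rose in BV+ cells (4.55%, beside 8.02%). With offsets 0 of the transducers were called in BV- cells (6.25% of all genes) and 1 in BV+ cells (4.55%, beside 12.5% of all genes). Among the 13 other feedback inhibitors 2 rose in BV+ cells (15.4%, beside 8.02%), Spry1 at 0.65 and Dusp5 at 0.72 (edgeR adjusted p = 0.0412 and 0.0470). Neither call held with offsets, at 0.31 and 0.37 (edgeR adjusted p = 0.0756 and 0.0852). With offsets 1 other inhibitor was called higher in BV+ cells (7.69%, beside 12.5% of all genes), Il17rd at 0.34 (edgeR adjusted p = 0.0425). Of these inhibitors 1 rose and 1 fell in BV- cells (15.4%, beside 17.2%), and 0 were called with offsets (6.25% of all genes). Of the 7 ERK-responsive genes tested, 1 had an unadjusted p under 0.05 in each population, and it did not pass the adjustment. Of all genes tested, 32.5% in BV+ and 39.1% in BV- cells had such a p, as did 3 of the 10 genes in each population. With offsets 0 of the 7 ERK-responsive genes were called in BV+ cells (12.5% of all genes). In BV- cells 1 was called with offsets (6.25% of all genes), Phlda1, which was lower at -0.98 (edgeR adjusted p = 0.0280).

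Between BV+ and BV- cells, 18 of the 69 genes were higher and 0 lower with NRF1 OE (26.1%, beside 13.8% of all genes), and 2 were higher and 0 lower with Ctrl (2.90%, beside 1.12%). The median log2 fold change of the 69 genes was 0.11 with NRF1 OE and 0.061 with Ctrl. With offsets 16 were higher and 13 lower with NRF1 OE (42.0%, beside 27.9% of all genes), of which 15 had been called without them, and 4 were higher and 0 lower with Ctrl (5.80%, beside 1.70%). Feedback inhibitors held 5 of the 18 (38.5% of the 13 tested, beside 13.8% of all genes). These were Spred3, Dusp5, Il17rd, Spry1 and Dusp7 at log2 fold changes of 1.40, 0.75, 0.74, 0.56 and 0.54, and the median over all 13 was 0.54. With offsets 7 of the 13 were called (53.8%, beside 27.9% of all genes). These 5 and Dusp2 were higher, and Dusp9 was lower at -0.23 (edgeR adjusted p = 0.0461). The largest differences were those of Ets1 at 3.44 (edgeR adjusted p = 1.16e-06), Fgf10 at 3.25 (edgeR adjusted p = 5.46e-05) and the ERK-responsive gene Phlda1 at 2.20 (edgeR adjusted p = 0.000213). With Ctrl the genes called were again Ets1 at 2.09 and Fgf10 at 1.94 (edgeR adjusted p = 0.000759 and 0.0335). Ets1 and Fgf10 are also expressed in mesenchyme, whose marker sum moved in the same comparisons, but only through its collagen genes. Pdgfra, Thy1 and Twist1 were not called higher, whereas Kdr and Cdh5, of mesoderm and endothelium, were. The part of any of these cell types in the differences of Ets1 and Fgf10 was not tested.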

How the data were processed

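RNA-seq gene tables of 9 libraries in 4 groups were analysed. The authors aligned reads with HISAT2 2.0.1 to GRCm39 and counted them per gene with HTSeq 0.6.1, and they deposited raw counts, which were used for all tests, and FPKM, which were used for levels between genes only. Whether counting used the strand is not given in the sources used here. Counts were tested in R 4.3.3 with edgeR 4.0.16 (TMM, filterByExpr, quasi-likelihood F test, two-sided) in 1 model of all 9 libraries with 4 group terms, which pools their spread, and p-values were adjusted by Benjamini-Hochberg over 16903 genes. These genes were left by the filter of 33142 with a count, and 0 rows lacked a gene identifier. TMM factors lay between 0.969 and 1.026. CPM are TMM-scaled. The standard error is the absolute log2 fold change over the square root of F.

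Alternatives were DESeq2 1.42.0, other scaling factors, no filter, only the libraries compared, the replicate number as a block, offsets that take out how the counts of a library follow GC content and length (natural splines, 4 degrees of freedom), and each library left out. GC content and length came from a GRCm38 annotation that held 98.6% of the genes tested, and promoters from a RefSeq table of GRCm38.p6. The procedure was also run on simulated counts, with larger changes than those of the 10 genes and no trend with GC content. That run does not bear on changes of the size reported here. The 10 genes, the pathway list and the marker lists were chosen with earlier results of these data known. Of the pathway list, the genes named are the up to 3 largest rises and falls per comparison among calls (adjusted p under 0.05) whose mean reached 1 CPM. Other genes were named after their values were seen: the feedback inhibitors called and the markers. Of 73 listed pathway genes, 69 passed the filter. Intervals cover the spread between libraries, and 1 library left out of a group of 2 leaves a lone library that is assumed to vary like the others.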

Additional observations from a re-analysis of the deposited data

How the results depend on the processing

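The 50 log2 fold changes of these genes (10 genes in 5 comparisons) were refitted in 900 alternatives. In 783 they kept their direction and side of the threshold, in 64 a call was lost and in 23 a call was gained. In 30, for 11 of the log2 fold changes, the sign changed, and 0 of these were called. For NRF1 OE in BV+ cells the 1 gene called became 2 with no filter, with DESeq2 and with only the libraries compared, 4 with offsets, 3 with offsets and block, and 0 to 2 when a library was left out. In BV- cells the 3 genes became 1 with offsets or by the study's rule, 0 with only the libraries compared or with block and offsets, and 0 to 4 when a library was left out. With Ctrl the 0 genes that differed between BV+ and BV- cells became 3 with only the libraries compared and 0 to 1 when a library was left out. With NRF1 OE the 6 genes (4 higher, 2 lower) became 8 with offsets (3 higher, 5 lower), 2 with only the libraries compared, 2 by the study's rule and 1 to 7 when a library was left out. The cause was not tested.

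Same-numbered libraries did not deviate together in all pairs of groups (correlation 0.0175 for BV+ NRF1 OE with BV+ Ctrl, -0.316 for BV+ with BV- Ctrl, -0.489 and -0.621 for BV+ with BV- NRF1 OE, 0.574 and 0.613 for BV- NRF1 OE with BV- Ctrl), so the numbers were not taken as pairs. The trend with GC content also enters these correlations, so they cannot show whether same-numbered libraries came from the same culture. With the replicate block, 0 genes were called in place of 1 for NRF1 OE in BV+ cells, 0 in place of 3 in BV- cells, 1 in place of 6 between populations with NRF1 OE, and 0 as before with Ctrl and for the difference. With the numbers of the BV- Ctrl libraries exchanged, a fit added after seeing the data, 0 genes were called.

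Signs changed with offsets alone and with block and offsets, respectively, for Spred1 (0.23 and 0.23) and Dusp4 (-0.25 and -0.25) under NRF1 OE in BV+ cells, Fgfr1 (-0.020 and -0.067) and Spry2 (0.10 and 0.079) in BV- cells, Spry4 (-0.061 and -0.061) between populations with Ctrl, and Fgfr1 (-0.13 and -0.079, and -0.0036 with upper-quartile factors) with NRF1 OE. The difference for Fgfr2 was -0.025 with the block and -0.089 with block and offsets. With a library left out, Dusp4 ranged from -0.0042 to 0.12 for NRF1 OE in BV+ cells. In BV- cells Spry2 ranged from -0.11 to 0.019, Dusp6 from -0.17 to 0.10 and Etv4 from -0.13 to 0.088. Between populations, Spry4 ranged from -0.027 to 0.082 and Dusp4 from -0.033 to 0.050 with Ctrl, and Fgfr1 from -0.076 to 0.13 with NRF1 OE. The difference ranged from -0.0040 to 0.18 for Fgfr1 and from -0.060 to 0.15 for Fgfr2.

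Over all genes the calls were 1355 for NRF1 OE in BV+ cells (3 to 4371 in other fits, 0 to 4957 with a library left out), 2910 in BV- cells (0 to 4392, 0 to 5847), 190 between populations with Ctrl (121 to 890, 31 to 484), 2325 with NRF1 OE (1064 to 4651, 786 to 3182) and 0 for the difference (0 to 108, 0 to 33). Offsets moved the median of all genes between populations with NRF1 OE from -0.0049 to -0.10, and the share of calls higher in BV+ cells from 72.0% to 38.6%.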
